A study of Mus musculus with 5 samples.

Results

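Dense clusters of p300 peaks were examined in MS5 cells treated with TGF-β1 alone, and the same stretches of the genome were then read in cells that had also received pioglitazone and in the c-Jun lists of both treatments. A dense domain is a run of p300 peaks, in the list without pioglitazone, in which neighbouring peak centres lie no more than 12500 bp apart and which holds at least 5 peaks. This rule gave 388 domains out of 20961 runs of any length, 14448 of which were single peaks. The domains hold 2268 of the 31466 p300 peaks of that list, 7.21%. The domains were chosen by p300 peak positions without pioglitazone, so p300 counts in that list are given as a description. The p300 list with pioglitazone and both c-Jun lists played no part in the choice.

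The cells are MS5, a stromal line established from mouse bone marrow, used at passage 11. Every library analysed here came from cells given TGF-β1 at 10 ng/mL for 5 h. Chromatin was precipitated with an antibody to p300 or to c-Jun and its DNA sequenced (ChIP-seq), from cells that also received pioglitazone at 20 ng/mL and from cells that did not. The 4 groups are p300 with pioglitazone, p300 without it, c-Jun with pioglitazone and c-Jun without it, with 1 library each, and the series also has a pooled input that was not used here. No group without TGF-β1 was analysed here, so the domains cannot be set against unstimulated cells. The lists hold 21994 p300 peaks with pioglitazone, 31466 p300 peaks without it, 13325 c-Jun peaks with it and 17044 c-Jun peaks without it. Each list is a set of positions on the mouse build mm9 with a score of 1 for every peak, so height, enrichment and sequencing depth are unknown, and unequal depth would change how many peaks a list holds. A group is 1 library, so values have no replicate check and no p-value. The 95% intervals cover counting error only and treat neighbouring peaks as independent, which they may not be. By the rule p300 peaks enter a domain at least 5 at a time, so intervals for shares of p300 peaks lying in domains are too narrow.

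p300 is a histone acetyltransferase that transcription factors recruit to active enhancers and promoters, and its binding sites often lie in groups along the regulatory regions of strongly expressed genes. Large enhancer clusters, often called super-enhancers, are usually ranked by signal, which these lists do not hold, so the domains here are clusters by peak number alone. c-Jun is a subunit of AP-1, a transcription factor of stress and growth responses that works together with the SMAD proteins activated by TGF-β1 and that can bring p300 to DNA. TGF-β1 drives stromal cells to deposit matrix, and pioglitazone activates PPARγ, a nuclear receptor that itself recruits coactivators. The domains are named by position only, because no annotation of mm9 was used here.

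The domains were mostly small. Of the 388, 206 held 5 p300 peaks, 101 held 6, 51 held 7, 22 held 8 or 9, and 8 held 10 or more, up to 15. Their spans ran from 11.4 to 95.6 kb with a median of 29.2 kb, and summed to 11.9 Mb. The 1880 distances between neighbouring p300 centres had a median of 6357 bp, and 128 of them, 6.81%, were under 1 kb, the shortest being 400 bp. Just inside the threshold, the 206 runs of 5 peaks had a mean of 3.0 p300 peaks with pioglitazone, and 1.69 c-Jun peaks with and 2.27 without it. Just outside it, the 536 runs of 4 peaks had means of 2.52, 1.33 and 1.77.

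The largest domain lay at chr6:135242443-135338010 and held 15 p300 peaks over 95.6 kb. With pioglitazone 9 p300 peaks were listed there, against 15 without it, while c-Jun had 6 peaks with and 5 without. A peak's position is its row in its list, used here as a stand-in for strength, since the score holds none and what the authors ordered the rows by is not stated. The p300 peak placed highest, 10.1 kb into the domain, stood at position 101 of the list without pioglitazone and at 103 of the list with it, and c-Jun was listed at the same place in both treatments. The 6 p300 peaks without a partner under pioglitazone stood at positions 3931 to 18224. Of these 6 sites, the peak 70.2 kb into the domain had c-Jun in both treatments and the other 5 had it in neither.

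The domain at chr8:124657208-124718175 had the most c-Jun. It held 11 p300 peaks with and 12 without pioglitazone, and 7 c-Jun peaks with and 10 without. The near-equal p300 counts hide a turnover. Of its 12 p300 peaks without pioglitazone 8 were also listed with it, among them the peak at position 9, which stood at position 26 with pioglitazone. The p300 peaks at 6.68 and 22.1 kb from the domain start were listed with pioglitazone only, and each lay where c-Jun was listed without pioglitazone only, at 6.64 and 22.1 kb. A further p300 peak listed with pioglitazone only, at 40.4 kb, lay on no c-Jun peak.

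**Figure D1:**
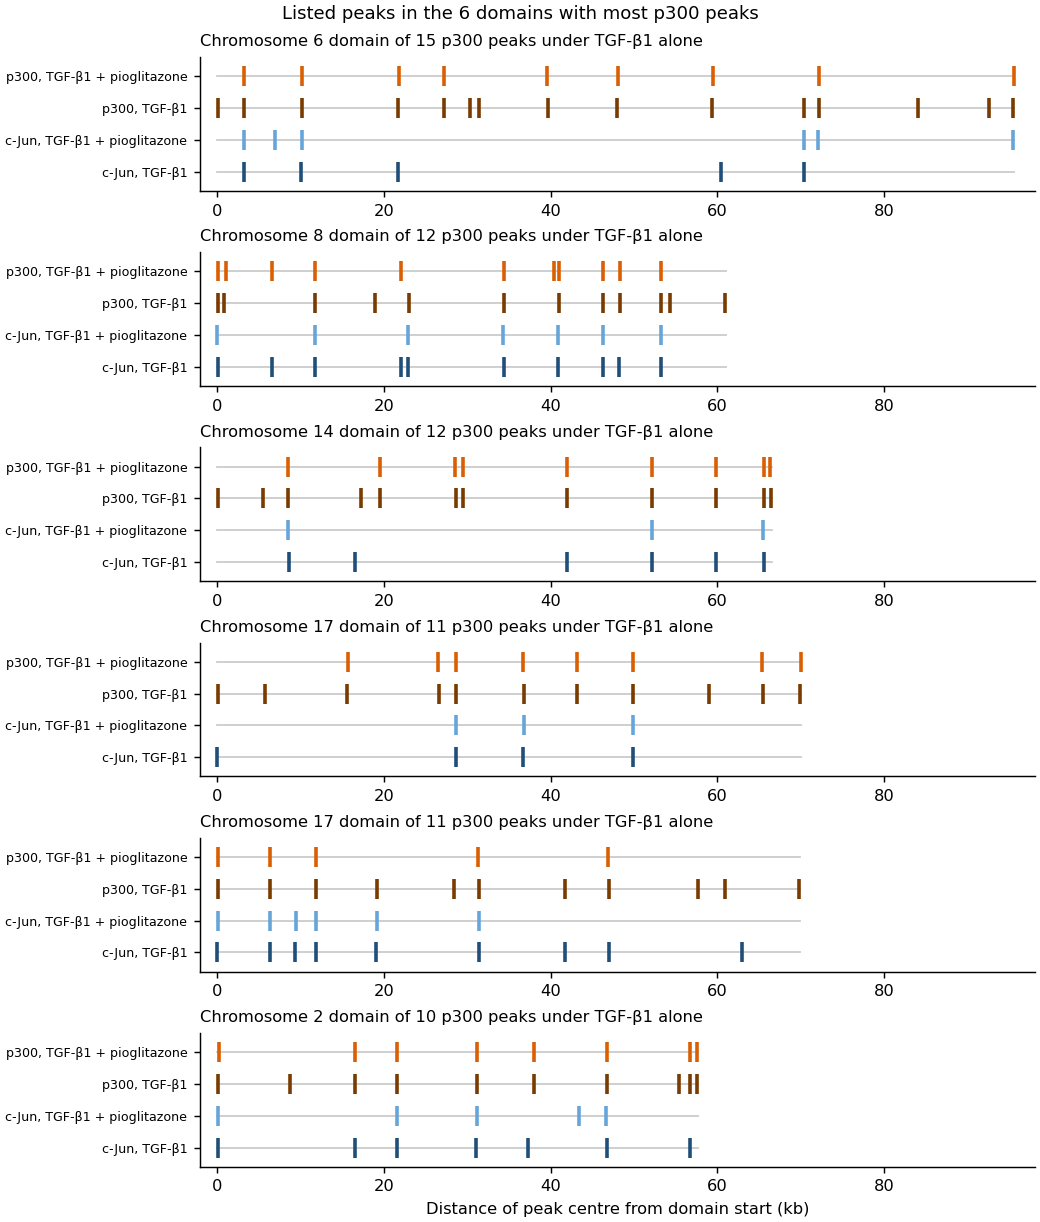
Positions of the listed peaks in the 6 domains with most p300 peaks under TGF-β1 alone, in kb from the start of each domain. Each tick is the centre of a listed peak; rows are p300 with and without pioglitazone and c-Jun with and without it. In the chromosome 6 domain 9 p300 ticks with pioglitazone stand against 15 without it.

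The domains at chr14:26287186-26353691 and chr17:26692861-26762870 had fewer p300 peaks with pioglitazone, and their highest-placed peaks were in both lists. On chromosome 14, p300 had 9 peaks with and 12 without pioglitazone, and c-Jun 3 and 6. All 9 p300 peaks with pioglitazone overlapped p300 peaks without it, and the 3 lost p300 peaks stood at positions 4735 to 9008. On chromosome 17, p300 had 8 peaks with and 11 without pioglitazone, and c-Jun 3 and 4. A second domain at chr17:29565261-29635157 had a wider gap for p300, with 5 peaks with and 11 without pioglitazone, and c-Jun had 6 and 9. Its retained p300 peaks included the 4 placed highest, at positions 376 to 2755, each with c-Jun in both treatments.

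The other 5 of the 10 domains with most p300 peaks held 9 or 10 without pioglitazone. p300 had 8 peaks with and 10 without pioglitazone at chr2:125073222-125130929, 6 and 10 at chr7:119402802-119460103, and 5 and 10 at chr13:42631949-42688609. At chr7:54256140-54307967 it had 7 and 9, and at chr5:31904818-31953189 it had 6 and 9. c-Jun did not follow the p300 counts closely, with 1 peak with and 4 without pioglitazone in the first chromosome 7 domain and 5 in both treatments in the other.

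Domain peaks stood high in the p300 list. The median position was 9879 for domain peaks and 16191 for all other p300 peaks of the 31466. Of the first 10% of the list, 423 of 3147 peaks lay in domains, 13.4%, and of the last 10%, 80 of 3146, 2.54%. A domain nevertheless mixes high and low places. The leading peak of a domain, the member placed first in the list, had a median position of 2653, and the member placed last a median of 22037. In 211 of 388 domains the leading peak was within the first 10% of the list.

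The first comparison asked how often c-Jun, the AP-1 subunit, sat on the p300 peaks of dense domains under TGF-β1 alone. Of 2268 domain p300 peaks, 956 overlapped c-Jun without pioglitazone, 42.2% (40.1 to 44.2), and of 29198 other p300 peaks 10872 did, 37.2% (36.7 to 37.8). Over the whole p300 list the share was 37.6%. The higher share in domains went with their higher place in the list. Within 10% steps of list order, domain peaks overlapped c-Jun less often than other p300 peaks, with a difference of -5.88 percentage points (-7.77 to -3.99), and their share was lower in each of the 10 steps. In the first 10% the shares were 77.8% (73.5 to 81.7) for domain peaks and 82.0% (80.5 to 83.4) for others. With pioglitazone, 709 domain peaks overlapped c-Jun, 31.3% (29.4 to 33.2), and 8035 others, 27.5% (27.0 to 28.0), against 27.8% over the whole list. That difference was -5.65 points (-7.44 to -3.85) within steps. The direction therefore depends on whether list order is taken into account.

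**Figure D2:**
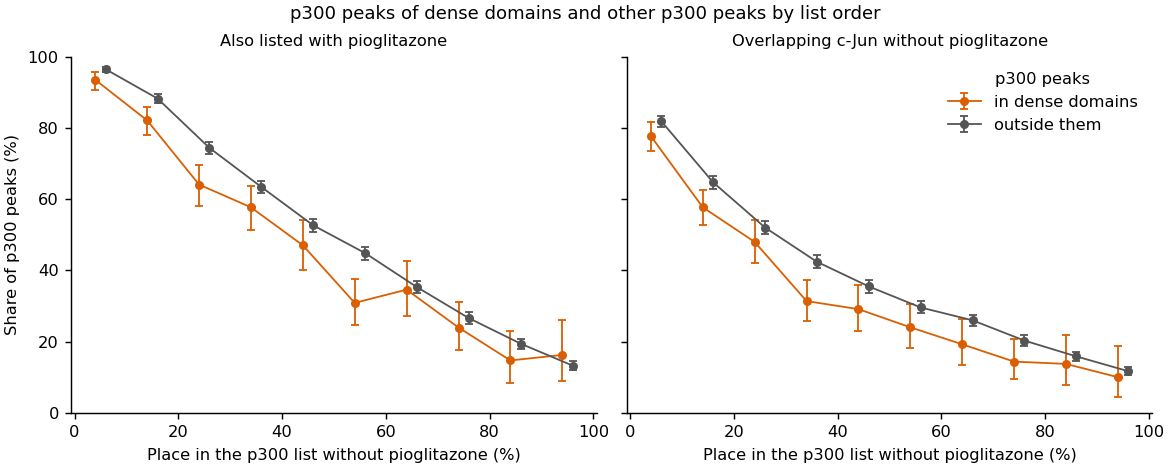
Share of p300 peaks also listed with pioglitazone (left) and overlapping c-Jun without pioglitazone (right), by place in the p300 list without pioglitazone in 10% steps. Points are shares in percent with exact 95% intervals for peaks in dense domains and peaks outside them; for c-Jun overlap the domain points are lower in all 10 steps, and for retention in 9 of 10.

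c-Jun reached nearly every domain. Without pioglitazone 1040 of 17044 c-Jun peaks lay in the domains, 6.10% (5.75 to 6.47), with a median of 3 per domain, a lowest of 0 and a highest of 10. Only 19 of the 388 domains had no c-Jun peak without pioglitazone, whereas 29% of the 6513 runs of 2 or more p300 peaks had none; those runs hold fewer p300 peaks on the whole. c-Jun was at every p300 peak in 3 domains, and in 20 no p300 peak overlapped c-Jun. Neither count is given for other runs, so they describe the domains only. Over the whole p300 list 37.6% of peaks overlapped c-Jun. Within the spans 956 of the 1040 c-Jun peaks sat on p300, 91.9% (90.1 to 93.5). Elsewhere 10872 of 16004 did, 67.9% (67.2 to 68.7). The spans were chosen for p300, which favours a high share.

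c-Jun overlap went with place in the list, within domains too. The leading p300 peak overlapped c-Jun without pioglitazone in 301 of 388 domains, 77.6% (73.1 to 81.6), and the last-placed peak in 54, 13.9% (10.6 to 17.8). With pioglitazone the counts were 240 and 34 domains, 61.9% (56.8 to 66.7) and 8.76% (6.14 to 12.0). Leading peaks exceeded the p300 peaks outside domains in c-Jun overlap without pioglitazone by 40.3 points (36.2 to 44.5) over the whole list, and by 7.31 (3.25 to 11.4) within 10% steps. As leading peaks are picked for their place, they may also stand higher within a step, which was not tested. Peaks with another p300 peak under 1 kb away carried c-Jun less often. Among these 253 peaks, 34.8% (28.9 to 41.0) overlapped c-Jun without pioglitazone, and among the other 2015 domain peaks 43.1% (40.9 to 45.3) did. The difference within 10% steps was -9.98 points (-15.8 to -4.18).

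The second comparison asked which p300 peaks of the domains were still listed with pioglitazone. A peak is called retained when a p300 peak with pioglitazone overlaps it by at least 1 bp, and lost otherwise; the words describe lists, not a test of binding. Of 2268 domain peaks 1329 were retained, 58.6% (56.5 to 60.6), and of the other 29198 p300 peaks 14748 were, 50.5% (49.9 to 51.1). The share over the whole list was 51.1%. Domain peaks stand higher in the list, and within 10% steps they were retained less often than other p300 peaks, at a difference of -5.65 points (-7.44 to -3.86) and with a lower share in 9 of 10 steps. When the same rule was run on the p300 list with pioglitazone and the lists exchanged, the difference was -0.35 (-2.91 to 2.21). That value is for p300 peaks with pioglitazone also listed without it, which is a different quantity. For that share the interval held 0.

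Which peaks of a domain were lost followed their place in the list. The leading peak was retained in 356 of 388 domains, 91.8% (88.6 to 94.3), and the last-placed in 105, 27.1% (22.7 to 31.8). Leading peaks exceeded p300 peaks outside domains in retained share by 41.2 points (38.4 to 44.0) over the whole list, and by 3.34 (0.82 to 5.85) within 10% steps. Leading peaks are picked for their place, and whether they also stand higher within a step was not tested. Every peak was retained in 17 domains and none in 5, and in 237 domains more peaks were retained than lost. No such counts are given for other runs, so these describe the domains only. Of all p300 peaks in the list 51.1% were retained. Few lost peaks had another p300 peak close by. Of the 939 lost domain peaks, 42 had a p300 peak with pioglitazone whose centre lay within 500 bp, 4.47%, and of the 14450 lost peaks elsewhere 760 did, 5.26%. New p300 peaks in the spans were few. Of the 1419 p300 peaks listed there with pioglitazone 90 overlapped none without it, 6.34%, against 26.9% of the whole list with pioglitazone, and the choice of spans for p300 without pioglitazone favours a low share.

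Inner and outermost peaks of the domains were retained about equally often over the whole list, at 58.7% (56.2 to 61.2) of 1492 inner and 58.4% (54.8 to 61.9) of 776 outermost peaks. Within 10% steps inner peaks were retained less often, at a difference of -5.84 points (-9.45 to -2.24). This call was lost when sharing required an overlap of 50% of both peaks, at -3.61 (-7.26 to 0.04), or centres within 100 bp, at -2.67 (-6.33 to 0.99). It was also lost with at least 4 peaks per domain, at -2.05 (-4.59 to 0.48), and with at least 7, at -2.43 (-9.85 to 4.98). Domain peaks with a p300 neighbour under 1 kb away were retained in 53.4% (47.0 to 59.6) and those with none in 59.3% (57.1 to 61.4), a difference of -5.90 points (-12.4 to 0.61) over the whole list and -8.53 (-14.3 to -2.81) within 10% steps.

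Both shares changed with the number of peaks joined. The retained share was 46.8% (46.0 to 47.6) for single p300 peaks, 52.8% (51.7 to 53.9) in pairs, 58.5% (56.4 to 60.6) in runs of 4, 55.7% (52.6 to 58.8) in domains of 5, 61.7% (57.5 to 65.9) in domains of 7 to 9 and 63.7% (53.0 to 73.6) in the 91 peaks of the 8 domains with 10 or more. Compared with single peaks at the same place in the list, every class was retained less often. The difference was -2.24 points (-3.38 to -1.10) for pairs, -5.71 (-7.17 to -4.25) for runs of 3 and -4.69 (-6.62 to -2.77) for runs of 4. For domains it was -9.18 (-11.9 to -6.50) with 5 peaks, -7.66 (-11.0 to -4.32) with 6, -5.53 (-9.07 to -1.99) with 7 to 9 and -17.6 (-26.3 to -8.99) with 10 or more, so it did not deepen steadily with run length. For c-Jun overlap the differences ran from -3.13 (-4.30 to -1.95) for pairs to -14.5 (-24.3 to -4.74) for domains of 10 or more, with -7.58 (-9.60 to -5.55) for runs of 4 and -6.83 (-9.64 to -4.03) for domains of 5. The difference was thus present below the threshold of 5 peaks and is not particular to the domains.

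**Figure D3:**
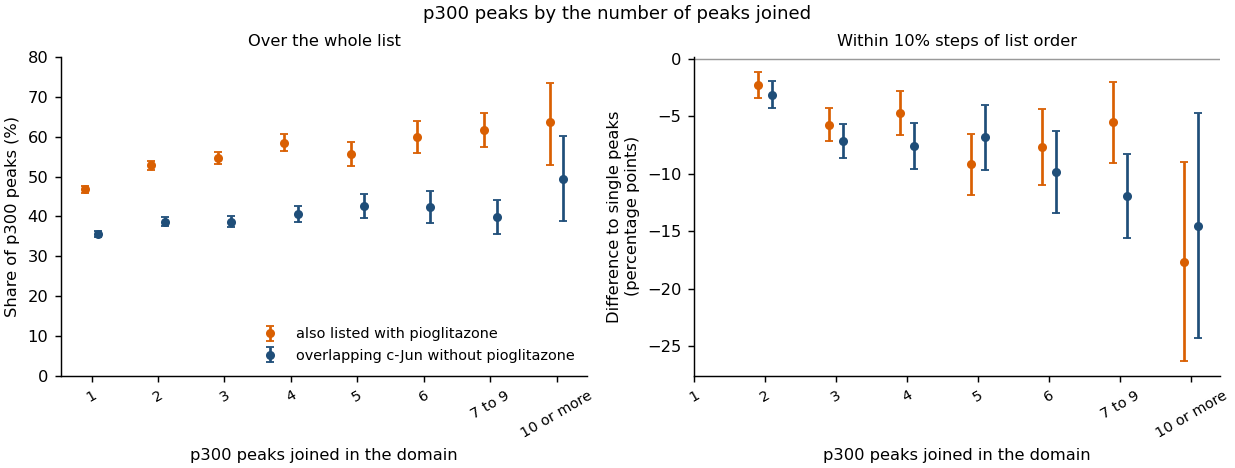
p300 peaks without pioglitazone by the number of peaks joined in their run, 1 being a single peak. Left, share also listed with pioglitazone and share overlapping c-Jun without pioglitazone, in percent with exact 95% intervals; right, difference to single peaks within 10% steps of list order, in percentage points with 95% intervals. The shares at left are lowest for single peaks, while every point at right is below 0.

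p300 peaks that carried c-Jun without pioglitazone were retained more often, in domains as elsewhere. In domains 751 of 956 such peaks were retained, 78.6% (75.8 to 81.1), and 578 of 1312 p300 peaks without c-Jun, 44.1% (41.3 to 46.8). Elsewhere the shares were 73.7% (72.9 to 74.5) and 36.8% (36.1 to 37.5). Within 10% steps the gap was 13.9 points (9.74 to 18.0) in domains and 15.8 (14.6 to 17.0) elsewhere, and whether these gaps differ was not tested. At the 956 domain sites with both factors, both were kept at 478, 50% (46.8 to 53.2), p300 alone was kept at 273, c-Jun alone at 83, and both were lost at 122, 12.8% (10.7 to 15.0). Elsewhere both were kept at 46.6% (45.7 to 47.5) and both lost at 16.8% (16.1 to 17.5) of 10872 sites. Over all domain peaks, 478 were in all 4 lists, 21.1% (19.4 to 22.8), and 677 were in no other list, 29.9% (28.0 to 31.8). Elsewhere 17.4% (16.9 to 17.8) were in all 4 and 37.0% (36.5 to 37.6) in no other.

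Counted by domain, p300 had a median of 4 peaks with pioglitazone, with a lowest of 0 and a highest of 11, and a median of 5 without it, with a lowest of 5 and a highest of 15. p300 peaks were fewer with pioglitazone in 357 domains, more in 1 and as many in 30. The p300 list with pioglitazone is also shorter, with 21994 peaks against 31466. The domains took 6.45% of it and 7.21% of the list without pioglitazone. Of all 6513 runs of 2 or more p300 peaks, 72.7% had fewer, but 4161 of these runs were pairs, which have less room to fall. Part of this direction is set by the rule, since the domains were picked for many p300 peaks without pioglitazone. The 140 domains that the same rule gave in the list with pioglitazone leaned the other way and less strongly, with more p300 peaks with pioglitazone in 73, fewer in 25 and as many in 42. The median change, with minus without pioglitazone, was 1 in these 140 and -2 in the 388. With pioglitazone 106 of the 388 domains still had 5 or more p300 peaks, 27.3% (22.9 to 32.0), and 2 had none.

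**Figure D4:**
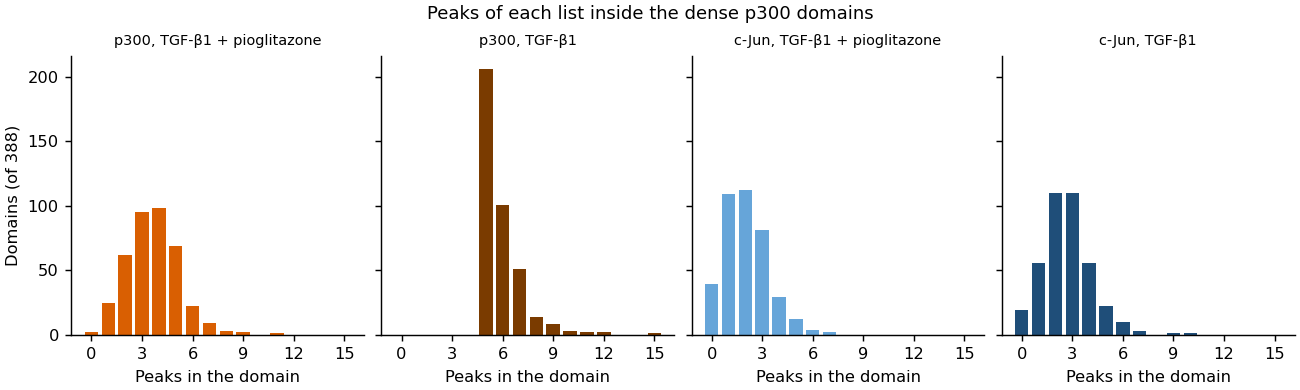
Number of peaks of each list in the 388 dense p300 domains; bars count domains. p300 with pioglitazone runs from 0 to 11 peaks, p300 without it starts at 5 by the rule, and the c-Jun lists run from 0 to 7 with and 0 to 10 without pioglitazone.

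The list with pioglitazone was also less clustered at equal length. Under the same rule it held 140 dense domains with 779 of its 21994 peaks, 3.54% (3.30 to 3.79), and the first 21994 rows of the list without pioglitazone held 238 domains with 1370 peaks, 6.23% (5.91 to 6.56). Nearer the top of the lists the gap was smaller. The first 10000 rows held 37 domains with 213 peaks with pioglitazone and 53 with 303 peaks without it. The first 5000 rows held 13 in each, with 68 and 76 peaks. Of the 140 domains with pioglitazone 84 overlapped the 388. The other 56 had 5 to 7 p300 peaks with pioglitazone and 2 to 6 without it, with a median of 4. c-Jun itself formed few dense domains, 14 with and 42 without pioglitazone, or 26 in the first 13325 rows without it. Of those 42, 28 overlapped a dense p300 domain. No such share is given for shorter runs of either antibody, so the overlaps of 28 and 84 describe these domains only. Over the whole lists, 11828 of 17044 c-Jun peaks without pioglitazone overlapped p300 without it. Of all 21994 p300 peaks with pioglitazone, 16077 overlapped a p300 peak without it.

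The largest losses of listed p300 peaks, of 6, were seen in 6 domains, of which the 5 with the highest-placed leading peak are named here. Besides those on chromosome 6 and chromosome 17 above, p300 had 1 peak with and 7 without pioglitazone at chr3:136496886-136535992, 2 and 8 at chr9:87978129-88013912, and 2 and 8 at chr4:144571071-144607926. The chromosome 3 domain had a single highly placed peak. Its peak at position 587 was retained, at position 1195 with pioglitazone, and the other 6 stood at positions 16459 to 30661. On chromosome 9 the c-Jun count was 3 in both treatments, and on chromosome 4 c-Jun had 0 peaks with and 3 without pioglitazone.

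A few domains kept their p300 peaks. At chr11:5735106-5763009 all 6 p300 peaks were retained, 6 being listed in each treatment, and c-Jun had 4 peaks in each. At chr17:14659105-14683247 all 5 were retained, with 3 c-Jun peaks with and 2 without pioglitazone. The domains at chr6:31032050-31063846 and chr19:30182036-30221477 had 5 p300 peaks in each treatment, with 4 of the 5 retained. c-Jun had 4 peaks with and 5 without pioglitazone in the chromosome 6 domain, and 3 and 4 in the chromosome 19 domain. The chromosome 6 domain held highly placed peaks throughout, at positions 26 to 693, and the peak it lost, at position 355, carried c-Jun in both treatments. The single domain with more p300 peaks under pioglitazone, at chr5:77790311-77816624, had 6 with and 5 without it, all 5 of them retained.

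The third comparison asked how c-Jun changed with pioglitazone inside spans that c-Jun had not chosen. With pioglitazone 790 of 13325 c-Jun peaks lay in the domains, 5.93% (5.53 to 6.34), and without it 1040 of 17044, 6.10% (5.75 to 6.47), so the domains took a like share of both c-Jun lists and the counts differed about as the lists did. Per domain c-Jun had a median of 2 with and 3 without pioglitazone. c-Jun peaks were fewer with pioglitazone in 197 domains, more in 64 and as many in 127. Among all runs of 2 or more p300 peaks, 34.2% had fewer and 813 of the 6513 had more. Those runs are mostly shorter, and 29% of them had no c-Jun peak without pioglitazone, against 19 of the 388 domains. They therefore have less room to fall. With the lists cut to equal length, 43.3% (36.9 to 49.8) of 238 domains had fewer c-Jun peaks, against 50.8% (45.7 to 55.9) of the 388 with the full lists. c-Jun was present in both treatments in 338 domains, without pioglitazone only in 31, with it only in 11 and in neither in 8. These 4 counts are not given for other runs.

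c-Jun peaks in the domains were retained more often over the whole list, at 56.1% (53.0 to 59.1) of 1040 against 45.0% (44.2 to 45.8) of 16004 elsewhere. Over the whole c-Jun list 45.7% were retained. This too went with list order. Domain c-Jun peaks had a median position of 5867 and others 8712, and within 10% steps of the c-Jun list the difference was 1.46 points (-1.35 to 4.28), which does not exclude 0. It excluded 0 with at least 4 p300 peaks per domain, at 3.08 (0.97 to 5.18), and it was -1.03 (-5.80 to 3.73) with the first 50% of rows. For domains built from the list with pioglitazone the lists were exchanged, and the difference was 11.2 (7.08 to 15.4). That value is for c-Jun peaks with pioglitazone also listed without it, so it is a different quantity from the 1.46. Among c-Jun peaks that overlapped p300 without pioglitazone the difference in retained share was -3.01 (-6.02 to -0.000752). Of c-Jun peaks listed with pioglitazone, 207 of 790 in domains were gained, that is, absent from the list without it, 26.2% (23.2 to 29.4), and 42.6% (41.7 to 43.4) of 12535 elsewhere. The gained share over the whole list was 41.6%. Within steps the difference was -9.43 points (-12.4 to -6.48), but among c-Jun peaks on p300 with pioglitazone it was -1.77 (-4.84 to 1.30). Of the 207 gained c-Jun peaks, 150 lay on p300 sites listed without pioglitazone, 72.5% (65.8 to 78.4), and 36.4% (35.1 to 37.7) of the 5335 gained elsewhere did. The spans were chosen for such p300 sites, which favours a high share.

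After the chromosome 8 domain, most c-Jun peaks without pioglitazone were listed at chr17:29565261-29635157, with 6 c-Jun peaks with and 9 without pioglitazone. Next came chr6:112195690-112232196, with 5 and 7, chr2:125073222-125130929, also 5 and 7, and chr13:42631949-42688609, with 7 in both. On chromosome 13 c-Jun held its count while p300 had 5 peaks with and 10 without pioglitazone. The c-Jun sites were not all the same. The p300 peaks 24.9 and 30.1 kb into that domain had c-Jun without pioglitazone only. The p300 peak at the domain start had c-Jun with pioglitazone only. The largest losses of c-Jun peaks, of 4, were at chr5:31904818-31953189, with 2 and 6, at chr6:108609400-108643304, with 1 and 5, and at chr6:97756837-97806034 and chr6:15670501-15708721, with 2 and 6 each. At chr6:108609400-108643304 p300 held better than c-Jun, with 7 peaks with and 9 without pioglitazone.

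c-Jun had 2 more peaks with pioglitazone in 6 domains, and in each of the 5 named by rank p300 was listed with fewer peaks. The domain at chr7:35103254-35133321 had 3 c-Jun peaks with and 1 without pioglitazone, and 5 and 9 p300 peaks. The other 4 lay at chr9:71249515-71268087, chr6:114917150-114938880, chr19:47394641-47421551 and chr5:104875200-104894587. They had 3 c-Jun peaks with and 1 without pioglitazone, except that on chromosome 9 with 4 and 2. Of the 8 domains with no c-Jun peak in either list, the highest placed was at chr18:80840912-80857460, whose leading p300 peak stood at position 796, with 2 p300 peaks with and 5 without pioglitazone. The next were at chr17:84285156-84301657, with 2 and 5, at chr2:126206140-126251340 with 3 and 7, at chr2:157939627-157971325 with 5 and 6, and at chr1:62794411-62824093, with 2 and 5.

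p300 and c-Jun both had fewer peaks with pioglitazone in 180 of the 388 domains. In 117 p300 had fewer peaks with pioglitazone and c-Jun as many, and in 60 p300 had fewer and c-Jun more. Such joint counts are not given for other runs. Of the 31 domains with as many or more p300 peaks, c-Jun had fewer in 17, as many in 10 and more in 4. Fewer c-Jun peaks were thus listed in domains whose p300 count held as well as in those with fewer p300 peaks.

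**Figure D5:**
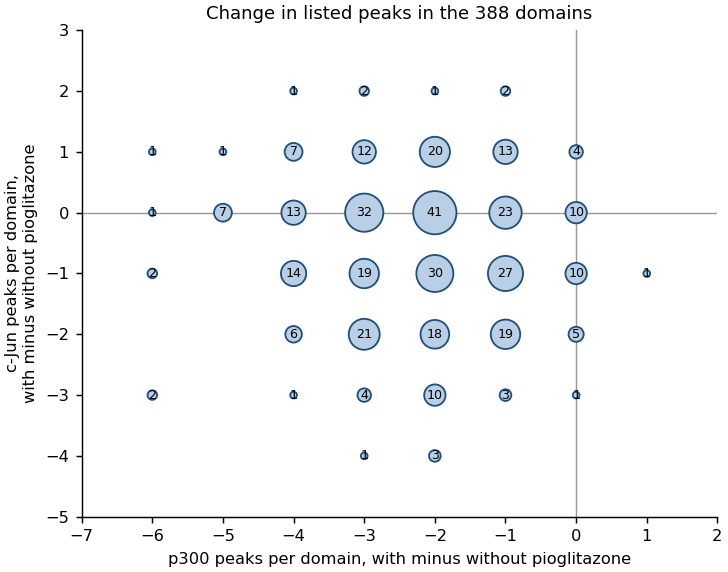
Change in the number of listed p300 peaks (horizontal) and c-Jun peaks (vertical) per domain, with minus without pioglitazone. Each circle is a pair of changes, its area and number giving the domains; p300 changes run from -6 to 1, partly set by the choice of domains, and c-Jun changes from -4 to 2.

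Dense domains lay on every chromosome except Y. Chromosome 2 had the most, 40, with 9.57% (8.43 to 10.8) of its 2434 p300 peaks in domains, and chromosome 7 had 27, with 9.01% (7.72 to 10.4) of 1787. The X had 3 domains, with 16 of its 754 p300 peaks, 2.12% (1.22 to 3.42). Among autosomes chromosome 10 had the smallest share, 4.97% (4.06 to 6.02) of 2011 peaks, followed by chromosome 11 with 5.33% (4.36 to 6.43).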

How the data were processed

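ChIP-seq peak lists of 4 libraries were used, 1 for each antibody and treatment. The build mm9 and the tools HOMER, SAMtools 1.9 and Bowtie2 2.3.4.3 are named in the submitters' processing notes, without settings or roles. The authors deposited each list with a score of 1 throughout and 1 peak width per list, 227 and 247 bp for p300 with and without pioglitazone and 235 and 249 bp for c-Jun. Depth is therefore unknown. Tables at hand were of another build, so genes, promoters and motifs were not examined and no sequence is shown.

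Peaks were counted in a domain when they overlapped its span by at least 1 bp. Overlaps were computed in Python (version 3.11.15, numpy 2.4.6, pandas 2.3.3, scipy 1.17.1) and matched bedtools (version 2.31.1) in 24 of 24 comparisons, as did the number of domains; the functions were tested on simulated data. Shares carry exact Clopper-Pearson 95% intervals, and differences Mantel-Haenszel weighted ones within 10% steps of row order. No test across replicates was possible. Domains are named by fixed rules: the 10 with most p300, the 5 largest falls and the 5 largest rises (or smallest falls) of either antibody, the 5 with most c-Jun, and the 5 highest placed with no c-Jun, ties by the first-placed p300 peak. The domains, rules and alternatives were chosen with earlier results of these data known.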

Additional observations from a re-analysis of the deposited data

Results flagged for a closer look

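In 7 of the 32 named domains the listed p300 and c-Jun peaks moved in opposite directions with pioglitazone. The difference was not tested, since each group is 1 library, and most of these domains were named for a large change of 1 antibody. c-Jun changed by 2 where p300 had fewer peaks at chr7:35103254-35133321, chr9:71249515-71268087, chr6:114917150-114938880, chr19:47394641-47421551 and chr5:104875200-104894587. It changed by 1 in the largest domain, at chr6:135242443-135338010, where p300 changed by -6. It changed by -1 in the domain at chr5:77790311-77816624 where p300 changed by 1. Over all 388 domains 60 had fewer p300 and more c-Jun peaks, and 1 had the opposite. p300 had fewer peaks in 357 of the 388, partly by the choice of domains. It had fewer in 60 of the 64 domains with more c-Jun peaks, 117 of 127 with as many and 180 of 197 with fewer. Fewer p300 peaks thus went with every direction of c-Jun alike.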

How the results depend on the processing

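The values below are for 11 alternatives, 1 of which, leaving out the steps of list order, was added after the data had been seen. The number of domains follows the rule: 134 with the first 50% of rows of every list, 238 at equal list length, 3 with joining at 5 kb, 1323 at 25 kb, 924 with at least 4 peaks, 81 with at least 7 and 140 from the p300 list with pioglitazone. The shares of p300 with, p300 without, c-Jun with and c-Jun without pioglitazone inside domains were, in the same order of settings, 4.61%, 4.86%, 3.78% and 3.87%; 4.42%, 6.23%, 4.11% and 4.85%; 0.0364%, 0.0508%, 0.0300% and 0.0176%; 26.9%, 29.0%, 24.1% and 24.9%; 12.6%, 14.02%, 11.3% and 11.7%; 1.88%, 2.01%, 1.67% and 1.73%; and 3.54%, 2.26%, 2.54% and 2.48%. Domains that reached the minimum number of p300 peaks in the other p300 list made up 34.9% at equal length, 41.95% at 25 kb, 32.6% and 18.5% with at least 4 and 7 peaks, and 64.3% for domains built with pioglitazone. Domains with fewer c-Jun peaks with pioglitazone made up 43.3% at equal length and 56.2% at 25 kb. Without steps of list order the c-Jun overlap, p300 retention and inner-peak differences reversed, to 4.92, 8.09 and 0.34 points, and the c-Jun retention difference passed 0, at 11.1. The last also did so with at least 4 peaks (3.08), and reversed with the first 50% of rows (-1.03). For domains built with pioglitazone the lists were exchanged. Retention differences there are for peaks with pioglitazone also listed without it, a different quantity. That for c-Jun was 11.2 and excluded 0, and that for p300 was -0.35 and did not. The inner-peak difference no longer excluded 0 with 50% overlap (-3.61), centres within 100 bp (-2.67), at least 4 peaks (-2.05) or at least 7 (-2.43). The cause was not tested. The c-Jun overlap difference kept its sign and excluded 0 in the other 9 alternatives, from -8.53 to -4.49, the latter for both lists with pioglitazone. Joining at 5 kb left under 20 peaks or domains and gave no differences, a minimum chosen after the data had been seen. No paired analysis was possible because each group is 1 library.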
